A study of Mus musculus with 84 samples.

Results

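The genes described here are 44 complement and coagulation factors of the liver, taken as the rows of the deposited liver tables whose Ensembl gene identifier carried one of 44 listed mouse symbols. All 44 were found among the 48794 genes of the tables, and all 44 passed the filter on low values that left 15964 genes for testing. They comprised 17 complement components, 4 regulators of complement, 14 clotting factors, 6 inhibitors of clotting and 3 genes of fibrinolysis. The livers came from male C57BL/6J mice made obese with a diet holding 60% of its energy as fat (diet-induced obese, DIO), single-housed, 22 weeks old when dosing began and dosed under the skin every day for 30 days. There were 7 groups of 6 mice, with 1 liver library a mouse: vehicle, BI 456906 at 3, 10, 20 or 30 nmol/kg, and semaglutide at 20 or 100 nmol/kg. BI 456906 is a peptide that activates both the glucagon receptor and the glucagon-like peptide-1 (GLP-1) receptor, and semaglutide activates the GLP-1 receptor. All groups ate the high-fat diet, so no lean liver is part of the comparisons. Each liver library held 21676902 to 53869104 reads (median 43179390), and albumin (Alb) stood at 43236 TPM (reads scaled for gene length and library depth) or more in each of them.

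Complement is a cascade of plasma proteins. C1 and the mannose-binding lectins with their MASP proteases recognise a target, C2, C4 and factor B build the enzymes that split C3, and C5 to C9 assemble a pore in the membrane of the target. Clotting is a second cascade of plasma proteases that ends when thrombin, the product of F2, turns fibrinogen into fibrin, and factor XIII then links the fibrin strands. Serpins and the protein C pathway hold clotting back, and plasmin, the product of Plg, dissolves the clot. Hepatocytes make most of these proteins, and several, fibrinogen and C3 among them, are acute-phase proteins whose output rises in inflammation.

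With vehicle, the 44 genes together held 2.16 to 2.57% (median 2.26%) of all TPM in the liver, and 9 of them stood at 1000 TPM or more on average. Serpinc1, which encodes antithrombin, was the most abundant at 3099 ± 193 TPM (SD, n = 6). It was followed by Fga at 2238 ± 230.5, Fgg at 1959 ± 181, C3 at 1575 ± 167 and Vtn at 1531 ± 106 TPM. The ranges of Serpinc1 (2895 to 3409) and Fga (1972 to 2655) did not overlap, while those of Fga and Fgg (1789 to 2288) did. At the other end, 5 genes were under 50 TPM, namely C6, Pros1, F11, Masp1 and Cfp, with Masp1 at 21 ± 5.17 and Cfp at 20.9 ± 5.96 TPM. The spread between vehicle mice was small for F12 and F2 (coefficients of variation of 3.47% and 3.91%) and wide for C8b and Cfp (31.3% and 28.5%).

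The vehicle groups of the same series also hold epididymal fat, which shows which of these genes are read outside the liver. Liver transcripts varied strongly among the 6 fat libraries (Alb at 9.87 to 3679.7 TPM), so the library with the least Alb was used for this description and no test was made. In that fat library 12 of the 44 genes stood at 5% or more of their mean liver level and 29 stood under 1%. The 12 were C1ra, C1s1, C2, C3, C4b, C6, Cfb, Cfp, Serping1, F7, F10 and Pros1. C3 was at 1007 TPM in this fat library against a liver mean of 1575, C1s1 at 347 against 338, and Cfp, the properdin gene of myeloid cells, at 157 against 20.9 TPM. The fibrinogen genes, by contrast, were at 0.46, 0.38 and 0.81 TPM (Fga, Fgb, Fgg), Hc at 0.71 and Serpinc1 at 1.29 TPM, and F11 was listed at 0.

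**Figure D1:**
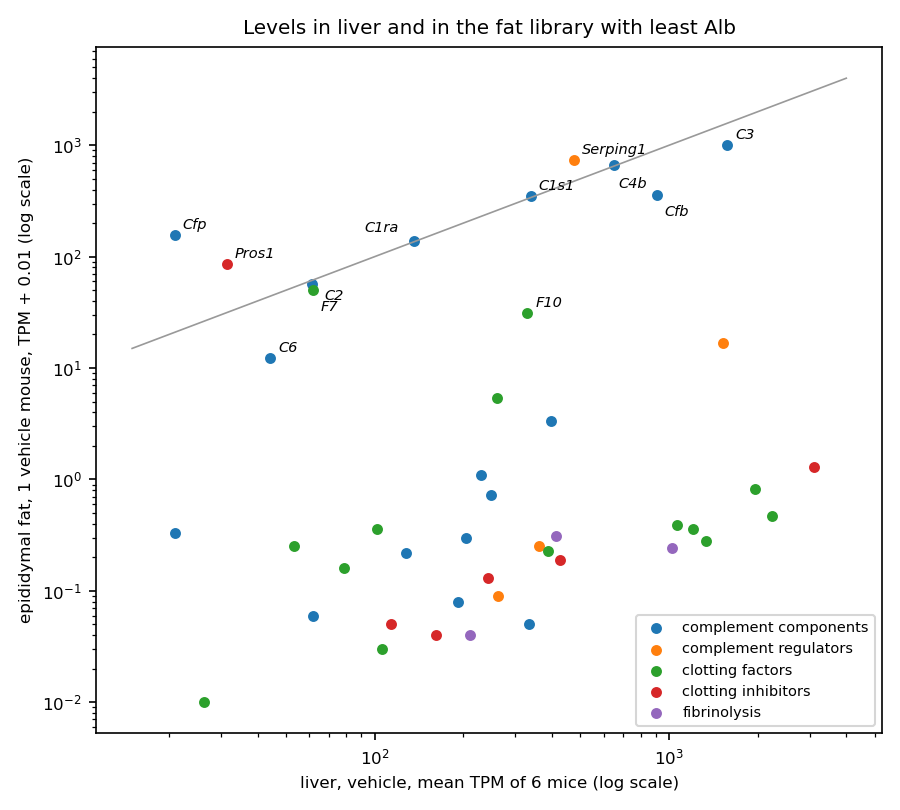
Mean TPM in the liver of 6 vehicle mice (horizontal axis, log scale) against TPM plus 0.01 in the vehicle fat library with the least Alb (vertical axis, log scale), 1 point per gene, coloured by role, with the line of equal levels. The 12 named genes stand at 5% or more of their liver level, and 29 of the others lie under 1%.

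Tests used the deposited read counts, which the authors had divided by 1 factor per library (called scaled reads here), in a limma/voom fit over the 42 liver libraries. A gene passed a comparison when its false discovery rate (FDR) over the 15964 genes was at or below 0.05, and log2 fold changes are given as estimate ± standard error on scaled reads unless TPM is named. The 6 comparisons with vehicle share the same 6 control livers. At 30 nmol/kg BI 456906, 15 of the 44 genes were higher than with vehicle and 9 were lower, where 28.9% and 29.9% of all genes tested passed in the same directions. At 20 nmol/kg 16 were higher and 3 lower (all genes 23% and 22.9%), at 10 nmol/kg 10 and 1 (19.4% and 18.1%), and at 3 nmol/kg 8 and 0 (8.46% and 4.93%). Semaglutide gave 16 higher and 2 lower at 20 nmol/kg (23% and 23.5%), and 17 and 2 at 100 nmol/kg (24% and 24.1%). As a description, the share of the 44 that rose was near that of all genes at 10 and 30 nmol/kg and above it in the other 4 comparisons, and the share that fell was below it in all 6. The median log2 fold change of the 44 genes at 30 nmol/kg was 0.08 against -0.03 over all genes tested. C3 and Fga passed the study's own call at 30 nmol/kg, which also asks for a log2 fold change of at least 1 in size (12.9% of all genes passed it). The estimate of C3 was 0.95 with library size alone, under that limit, and that of Fgb was 1.01 with sample quality weights, over it.

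This split moved with the setting. With library size alone and no TMM factor, which changes the scaling only, 12 genes were higher and 12 lower at 30 nmol/kg. On log2(TPM + 1), which changes the quantification and the weighting as well, 19 were higher and 5 lower. With sample quality weights, which keep the scaled reads and TMM factors, 20 were higher and 5 lower, and 21 and 2 at 20 nmol/kg. Serpinc1, F9, Kng2, Cfi and Pros1 passed upward on log2(TPM + 1) and not in the fit described above. Of these, Serpinc1, Kng2 and Cfi also passed upward in scaled reads with sample quality weights, and Pros1 without library 70. Over all genes tested, the log2 fold change at 30 nmol/kg shifted too, by a median of 0.07 on log2(TPM + 1). With library size alone the median shift was -0.06. The share of all genes passing was not counted under these settings, so the splits have no such share beside them. Without library 70 of the 30 nmol/kg group, which held the least C6, C8a, C8b and C9 of its group, 16 were higher and 6 lower. At 20 nmol/kg library size alone gave 16 higher and 6 lower, at 10 nmol/kg 11 and 3. On log2(TPM + 1) semaglutide gave 17 higher and 0 lower at 20 nmol/kg and 21 and 0 at 100 nmol/kg, so the falls of C1s1 and Masp2 with semaglutide were not called there. In TPM without a test, 11 of the 44 genes lay above all 6 vehicle livers in all 6 livers at 30 nmol/kg, where 18.6% of all genes did so, and 2 genes, C1s1 and F13b, lay below, where 10.8% did. The 11 were C3, Cfb, Masp1, Serping1, Vtn, F2, F5, Fga, Fgb, Fgg and Plg. In these bulk samples, fewer cells of a type and less RNA per cell cannot be told apart.

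**Figure D2:**
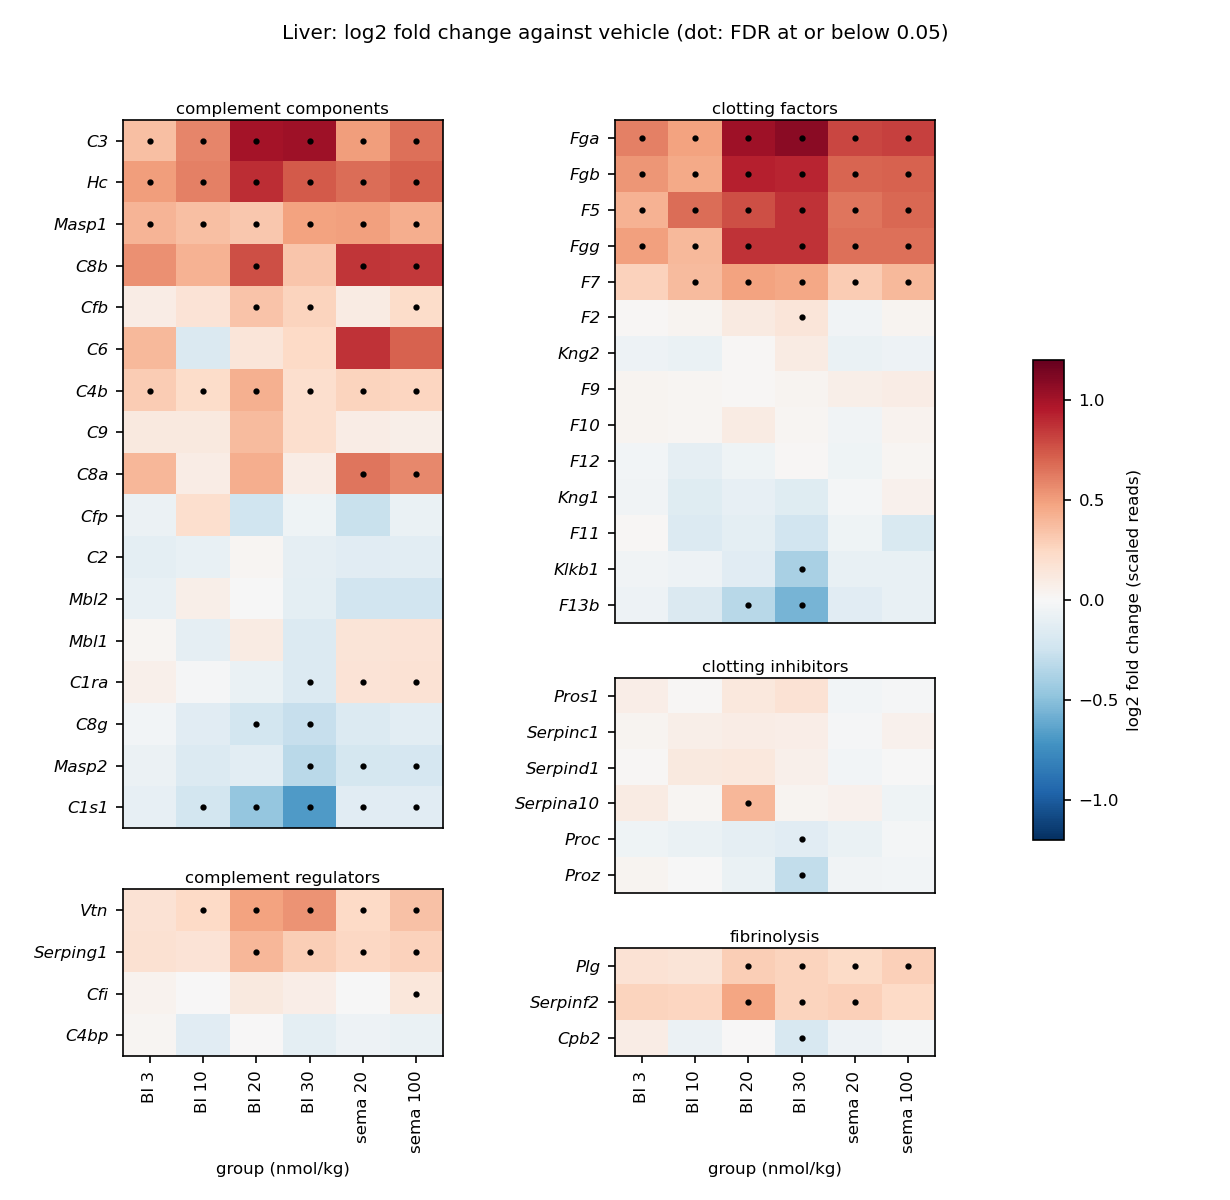
Log2 fold change against vehicle in scaled reads (colour) for the 44 genes in rows, grouped by role and ordered within a role by the change at 30 nmol/kg, with 1 column for each treated group of 6 mice. A dot marks an FDR at or below 0.05, and C3, Hc, Masp1, C4b, F5 and the 3 fibrinogen genes carry 6 dots each, and clotting inhibitors carry 3 dots in all.

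Among the 17 complement components, 5 were higher and 4 lower at 30 nmol/kg, near the 28.9% and 29.9% of all genes tested. Their median log2 fold change was 0.09. The component with the largest rise was C3 (chr17:57203970-57228136, minus strand, all positions here from GENCODE M21 on GRCm38), the protein on which the 3 arms of complement meet. C3 ran from 1349 to 1816 TPM (median 1579.8) with vehicle. With BI 456906 it ran from 1694 to 2353 TPM (median 2059) at 3 nmol/kg, 2103 to 2751 TPM (median 2419) at 10, 2708 to 3597 TPM (median 3343) at 20 and 2862 to 3588 TPM (median 3128) at 30 nmol/kg. The lowest liver at 10 nmol/kg and above lay over the highest vehicle liver, and the groups at 20 and 30 nmol/kg covered the same range. The log2 fold changes were 0.36 ± 0.09 (FDR = 0.0102) at 3, 0.59 ± 0.10 (FDR = 7.91e-06) at 10, 1.00 ± 0.10 (FDR = 3.78e-10) at 20 and 1.02 ± 0.10 (FDR = 4.15e-11) at 30 nmol/kg. Semaglutide took C3 to 2014 to 2577 TPM (median 2230.5) at 20 nmol/kg, a change of 0.50 ± 0.10 (FDR = 5e-05), and to 2213 to 2920.5 TPM (median 2441) at 100 nmol/kg, a change of 0.67 ± 0.10 (FDR = 6.09e-07).

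Hc (chr2:34983331-35061438, minus strand), which encodes C5, the protein that starts pore assembly, rose in scaled reads in the 6 comparisons, by 0.50, 0.61, 0.89 and 0.73 on the log2 scale from 3 to 30 nmol/kg and by 0.67 and 0.72 with semaglutide (FDR between 2.7e-08 and 0.00363). Scaled reads ran from 16899 to 30398 with vehicle and from 33157 to 43729 at 30 nmol/kg, without overlap. In TPM the vehicle livers gave 209 to 267 TPM (median 252) and the livers at 30 nmol/kg 259.6 to 329 TPM (median 286), and the ranges overlap. On log2(TPM + 1) the change at 30 nmol/kg was 0.21 (FDR = 0.0261), and at 20 nmol/kg it was 0.39 and also passed. On that scale Hc did not pass at 3 (0.18, FDR = 0.171) or 10 nmol/kg (0.17, FDR = 0.118), nor with semaglutide at 20 (0.13, FDR = 0.209) or 100 nmol/kg (0.18, FDR = 0.0676). Of the 44 genes, Hc had the widest gap between the scales at 30 nmol/kg, with ratios of group means of 1.64 in scaled reads and 1.16 in TPM. Which of the scales follows the C5 message was not tested.

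**Figure D3:**
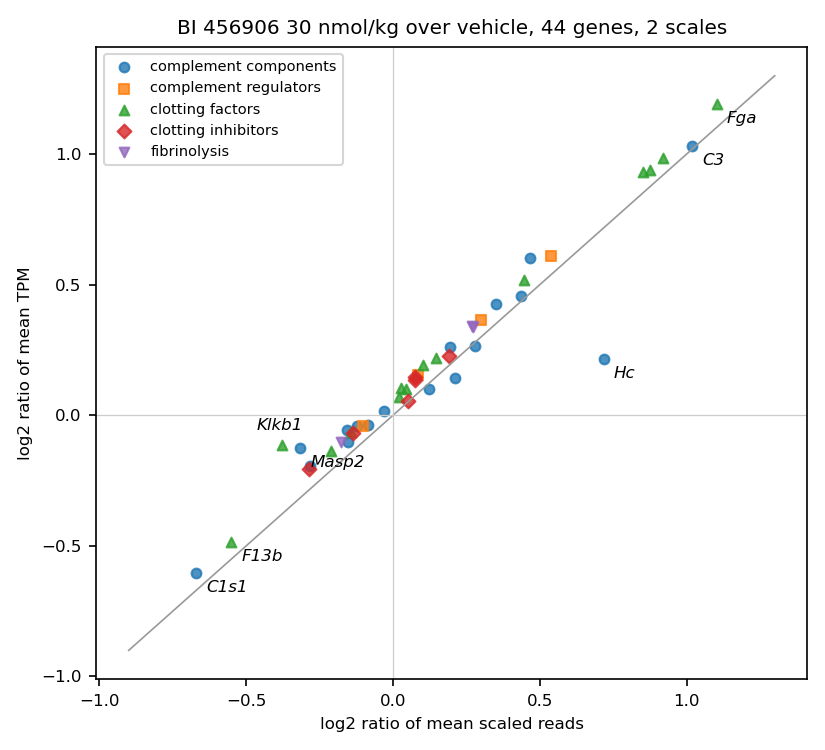
Log2 ratio of the group means, BI 456906 30 nmol/kg over vehicle, in scaled reads (horizontal axis) and in TPM (vertical axis) for the 44 genes, with the line of equal ratios and 1 marker shape per role. Most points lie just above the line, Hc lies furthest below it (0.72 against 0.21), and Klkb1 lies above it (-0.38 against -0.11).

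The proteases that start complement split in direction. C1s1 (chr6:124530345-124542359), the protease C1s of the classical pathway, fell with the dose of BI 456906. It ran from 265 to 370.4 TPM (median 352) with vehicle, from 305 to 333 TPM (median 320.2) at 10, from 240.0 to 296 TPM (median 271) at 20 and from 209 to 239 TPM (median 221) at 30 nmol/kg, where no liver reached the lowest vehicle liver. Its log2 fold change was -0.22 ± 0.06 (FDR = 0.00199) at 10, -0.46 ± 0.06 (FDR = 3.06e-08) at 20 and -0.68 ± 0.06 (FDR = 4.11e-12) at 30 nmol/kg. With semaglutide, C1s1 changed by -0.14 ± 0.06 (FDR = 0.0463) at 20 and -0.14 ± 0.06 (FDR = 0.0468) at 100 nmol/kg, calls that were lost under 8 and 10 of 13 alternative settings. C1ra, the protease C1r that activates C1s and whose gene lies 6.9 kb away, was -0.16 at 30 nmol/kg (FDR = 0.0285) but 0.16 and 0.17 with semaglutide (FDR = 0.04 and 0.0287). Without library 70 the change of C1ra at 30 nmol/kg was -0.12 (FDR = 0.127). Masp2, which cleaves C4 and C2 in the lectin pathway, fell by 0.32 on the log2 scale at 30 nmol/kg (FDR = 8.02e-05) and passed downward at both semaglutide doses (-0.21 and -0.20), its TPM going from 207 to 247 TPM (median 229) to 192 to 228 TPM (median 212). On log2(TPM + 1) the change of Masp2 at 30 nmol/kg was -0.13 and still passed, and its semaglutide calls were lost under 3 and 5 of 13 alternative settings. Masp1, the other lectin-pathway protease, rose in the 6 comparisons, by 0.32 to 0.49 on the log2 scale, from 11.3 to 25.9 TPM (median 22.3) with vehicle to 27.7 to 35.1 TPM (median 32.2) at 30 nmol/kg. Masp1 overlaps 3 annotated genes on the opposite strand, among them Rtp4, and whether the counts used strand is not settled by the sources used here. Others of the 44 overlap annotated genes too. Among them are Masp2 (Tardbp), Hc (Gm13449), C1s1 (Gm16567), C8g (Fbxw5), Fgg (Gm30097) and Plg (Slc22a3), each on the opposite strand. Klkb1 overlaps Gm45753 on its own strand. The part of these overlaps in the values was not tested.

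The genes of the pore differed among themselves. C8b rose at 20 nmol/kg BI 456906 (0.77 ± 0.24, FDR = 0.00823) and at both semaglutide doses (0.86 ± 0.24, FDR = 0.0036, and 0.85 ± 0.24, FDR = 0.00395), and C8a, its neighbour 11.1 kb away, passed at the semaglutide doses only (0.64 ± 0.22, FDR = 0.0147, and 0.57 ± 0.22, FDR = 0.0288). C8b ran from 41.8 to 85.6 TPM (median 57.1) with vehicle to 96.9 to 172 TPM (median 105) with semaglutide 20 nmol/kg. At 30 nmol/kg BI 456906 it ran from 39.1 to 108 TPM (median 88), and its change there was 0.33 ± 0.24 (FDR = 0.232). The lowest of these livers, library 70, held 39.1 TPM of C8b, 113 of C8a and 13.4 of C6, in each case the lowest value of its group, and without it the change of C8b at 30 nmol/kg was 0.55 (FDR = 0.0386). C8g, the third chain of C8, whose gene lies on another chromosome, was lower at 20 (-0.22 ± 0.08, FDR = 0.0213) and 30 nmol/kg (-0.27 ± 0.08, FDR = 0.00363), calls that were lost under 5 and 2 of 13 alternative settings, and with sample quality weights its change at 30 nmol/kg was -0.14. C6 passed in no comparison with vehicle although its fitted change reached 0.86, with single livers from 13.4 to 88.6 TPM at 30 nmol/kg alone, and C9 did not pass either. Under some other settings, edgeR, DESeq2 and sample quality weights among them, C6 passed upward with semaglutide 20 nmol/kg. On log2(TPM + 1) C9 passed upward at 20 nmol/kg BI 456906.

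C4b, the C4 gene of most abundance here, was higher in the 6 comparisons by 0.20 to 0.43 on the log2 scale, and its call at 30 nmol/kg was near the limit (FDR = 0.0456). Its close copy C4a, which stood at 24.4 to 64.7 TPM with vehicle, fell by 1.15 at 30 nmol/kg (FDR = 0.018), and reads that match both copies make either value uncertain. The copies C1rb and C1s2 of C1ra and C1s1 did not pass the filter, with at most 4 and 2 reads in a liver. Cfb, factor B of the alternative pathway, rose at 20 (0.34 ± 0.08, FDR = 0.00117) and 30 nmol/kg (0.27 ± 0.08, FDR = 0.00598) and with semaglutide 100 nmol/kg (0.22 ± 0.08, FDR = 0.0333), from 844 to 954 TPM (median 906) with vehicle to 979 to 1241 TPM (median 1063) at 30 nmol/kg. Cfb lies 0.086 kb from C2, and an annotated gene, Gm20547, spans both. Its read counts were 906 to 2812 a library, against 42837 to 117899 for C4b at a like TPM, so its counts and TPM do not keep one proportion and its values are uncertain. C2, Mbl1, Mbl2 and Cfp did not pass against vehicle in the 6 comparisons.

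Of the 4 regulators of complement, Vtn and Serping1 rose at 30 nmol/kg and none fell, where 28.9% of all genes tested were higher and 29.9% lower. Vtn, vitronectin, which blocks the pore and also stabilises the plasminogen activator inhibitor, ran from 1412 to 1689.8 TPM (median 1515) with vehicle to 1877 to 2083 TPM (median 1966) at 10, 2076 to 2386 TPM (median 2348) at 20 and 2220.3 to 2531 TPM (median 2318) at 30 nmol/kg. The vehicle range overlapped with none of these 3 groups. The log2 fold change was 0.24 ± 0.07 (FDR = 0.0051) at 10, 0.48 ± 0.07 (FDR = 2.83e-07) at 20 and 0.54 ± 0.07 (FDR = 1.62e-08) at 30 nmol/kg, and 0.24 ± 0.07 (FDR = 0.00387) and 0.35 ± 0.07 (FDR = 5.43e-05) with semaglutide. Serping1, the C1 inhibitor, which restrains C1r, C1s, kallikrein and factor XII, rose by 0.40 ± 0.07 (FDR = 2.01e-05) at 20, 0.30 ± 0.07 (FDR = 0.000469) at 30 nmol/kg and 0.25 and 0.27 with semaglutide, from 407 to 533 TPM (median 464) with vehicle to 588 to 657 TPM (median 606). C4bp, which speeds decay of the C4-C2 enzyme, did not pass. Cfi, the protease that inactivates C3b, passed with semaglutide 100 nmol/kg (0.13 ± 0.06, FDR = 0.0462), a call lost under 2 of 13 alternative settings, and against vehicle it also passed at 20 nmol/kg BI 456906 in DESeq2, and at 20 and 30 nmol/kg with sample quality weights and on log2(TPM + 1).

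Among the clotting factors, the 3 fibrinogen genes, F5, F7 and F2 were higher at 30 nmol/kg, and F13b and Klkb1 were lower. Thus 6 of the 14 were higher and 2 lower, beside 28.9% and 29.9% of all genes tested, with a median of 0.07. The 3 fibrinogen genes lie side by side on chromosome 3, Fgg and Fga 11 kb apart and Fga and Fgb 6.51 kb apart, with no protein-coding gene between them. Fga (chr3:83026076-83033627), the Aα chain, ran from 1972 to 2655 TPM (median 2203) with vehicle, 2692 to 4851 TPM (median 3440.0) at 3, 3069 to 3970.2 TPM (median 3351) at 10, 3697 to 6159.5 TPM (median 5126) at 20 and 4228 to 6572 TPM (median 4967) at 30 nmol/kg. The treated livers of the 4 doses all lay above the highest vehicle liver, and the groups at 20 and 30 nmol/kg covered much the same range. The log2 fold change was 0.60 ± 0.14 (FDR = 0.00568) at 3, 0.48 ± 0.14 (FDR = 0.00671) at 10, 1.01 ± 0.14 (FDR = 3.66e-07) at 20 and 1.09 ± 0.14 (FDR = 4.31e-08) at 30 nmol/kg. With semaglutide Fga ran from 3464 to 5546 TPM (median 3906) at 20 and 4011 to 4594 TPM (median 4084) at 100 nmol/kg, changes of 0.80 ± 0.14 (FDR = 2.03e-05) and 0.82 ± 0.14 (FDR = 1.37e-05). Fgb (chr3:83040141-83049863, minus strand), the Bβ chain, ran from 992 to 1247 TPM (median 1030.3) with vehicle to 1789 to 2666 TPM (median 2007) at 30 nmol/kg, and Fgg (chr3:83007724-83015049), the γ chain, from 1789 to 2288 TPM (median 1916) to 3182.5 to 4822 TPM (median 3601). Their log2 fold changes at 30 nmol/kg were 0.91 ± 0.13 (FDR = 3.37e-07) and 0.87 ± 0.13 (FDR = 5.94e-07), and over the 6 comparisons they lay between 0.45 and 0.93 for Fgb and between 0.39 and 0.87 for Fgg.

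The 3 chains moved in near proportion. In TPM, a level per length, Fga over Fgb was 1.99 to 2.55 over the 42 livers and Fgg over Fgb was 1.67 to 1.9. Fga over Fgb was 1.99 to 2.18 with vehicle and 2.31 to 2.52 at 30 nmol/kg, ranges that do not overlap. Together the fibrinogen genes held 0.475 to 0.619% (median 0.515%) of TPM with vehicle, 0.92 to 1.41% (median 1.06%) at 30 nmol/kg and 0.851 to 1.04% (median 0.903%) with semaglutide 100 nmol/kg. Saa1, an acute-phase gene looked at after the values were seen, ran from 188 to 422 TPM (median 373) with vehicle, 326 to 6665 TPM (median 683) at 20 and 237 to 2139 TPM (median 755) at 30 nmol/kg. The part of an acute-phase response in the fibrinogen values was not tested.

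**Figure D4:**
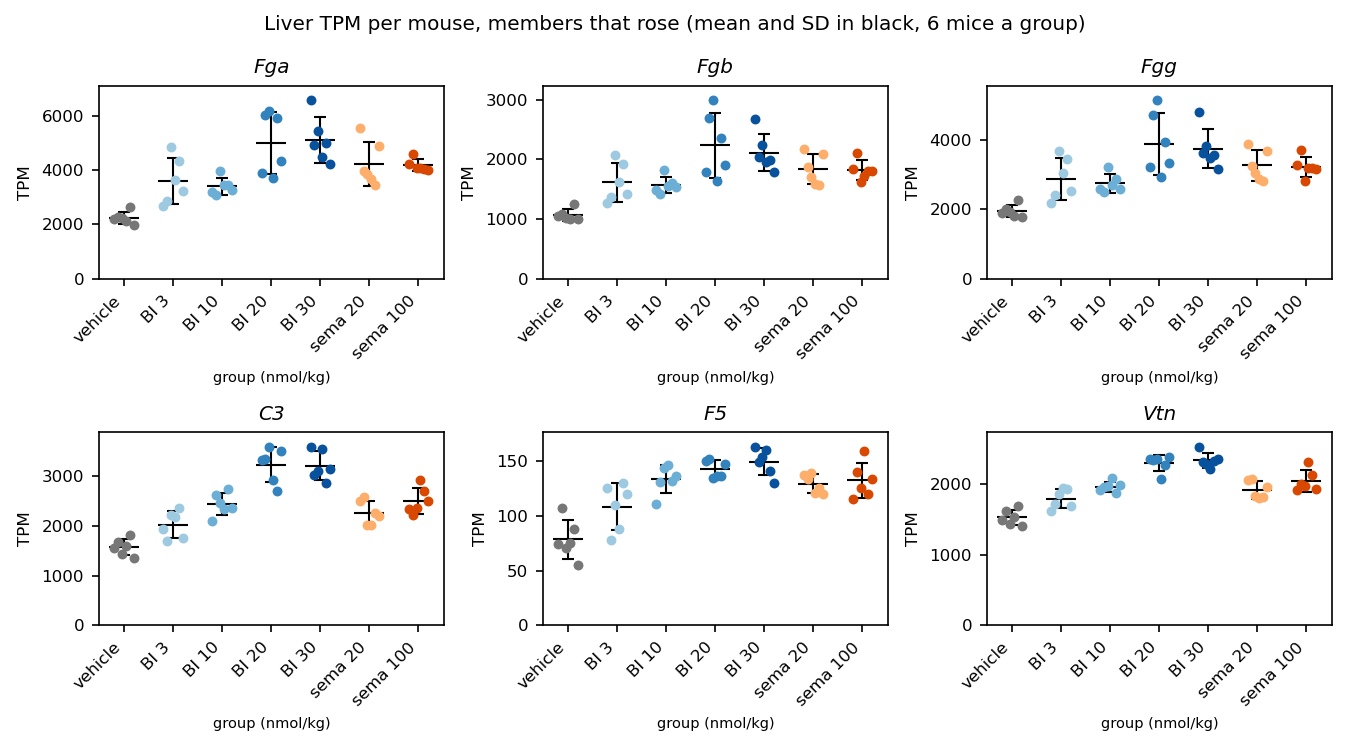
TPM in each of 42 livers for Fga, Fgb, Fgg, C3, F5 and Vtn (vertical axes from 0), by group on the horizontal axis with the dose in nmol/kg, 6 mice a group, with the mean and SD in black. In each panel the 6 livers at 30 nmol/kg lie above the 6 vehicle livers.

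Because the fibrinogen genes moved together, the bases before their annotated starts are given, with C3 as a gene that rose beside them and F13b as a clotting gene that fell. The windows are the 250 bases before the RefSeq start on GRCm38.p6, read 5′ to 3′ on the strand of the gene, and the last 77 of Fga and 5 of F13b are left out because GENCODE places them inside the gene. Capitals mark matches on either strand to TTNNGNAAT (a C/EBP-type site), CTGGGAA (the core of the interleukin-6 response element of fibrinogen genes), TTCNNNGAA (STAT-type) and GTTAAT (HNF1-type), none of which overlapped another in these windows.
Fga, chr3:83025903-83026075 (+ strand): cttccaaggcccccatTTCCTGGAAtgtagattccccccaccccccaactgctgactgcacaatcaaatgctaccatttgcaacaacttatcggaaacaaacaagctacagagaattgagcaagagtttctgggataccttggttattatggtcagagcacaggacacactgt
Fgb, chr3:83049864-83050113 (- strand): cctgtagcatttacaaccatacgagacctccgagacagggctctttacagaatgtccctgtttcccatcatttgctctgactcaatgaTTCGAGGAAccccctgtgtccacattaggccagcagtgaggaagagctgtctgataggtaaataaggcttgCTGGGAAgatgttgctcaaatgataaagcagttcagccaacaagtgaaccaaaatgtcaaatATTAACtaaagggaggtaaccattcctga
Fgg, chr3:83007474-83007723 (+ strand): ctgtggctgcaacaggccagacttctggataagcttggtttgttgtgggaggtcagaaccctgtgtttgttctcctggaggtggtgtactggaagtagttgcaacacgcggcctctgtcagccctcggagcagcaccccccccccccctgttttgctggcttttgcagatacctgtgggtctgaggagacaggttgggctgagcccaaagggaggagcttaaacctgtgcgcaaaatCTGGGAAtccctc
C3, chr17:57228137-57228386 (- strand): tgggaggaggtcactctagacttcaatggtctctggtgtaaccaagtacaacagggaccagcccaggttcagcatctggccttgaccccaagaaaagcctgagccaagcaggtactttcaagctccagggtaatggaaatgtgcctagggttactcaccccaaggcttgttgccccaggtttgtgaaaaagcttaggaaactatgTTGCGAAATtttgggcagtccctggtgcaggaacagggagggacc
F13b, chr1:139501457-139501701 (+ strand): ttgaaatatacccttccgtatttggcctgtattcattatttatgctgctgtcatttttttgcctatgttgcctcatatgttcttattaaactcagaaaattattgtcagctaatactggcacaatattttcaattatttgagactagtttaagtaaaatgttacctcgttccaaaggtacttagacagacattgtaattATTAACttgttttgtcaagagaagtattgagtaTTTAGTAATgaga
Fgb and Fgg held CTGGGAA, which 9.1% of 32851 promoter windows of this length hold. Fga and Fgb held TTCNNNGAA (7.02% of windows) and GTTAAT (6.43%), and none of the 4 motifs was found in the windows of all 3 fibrinogen genes. The GTTAAT match of Fga lies in the part that is not printed. C3 and F13b, which moved in opposite directions, both held TTNNGNAAT (10.2%), and F13b also held GTTAAT. Among the 34 of the 44 genes with a window in the table, 11 held GTTAAT, 8 TTNNGNAAT, 6 TTCNNNGAA and 5 CTGGGAA. A match describes the letters and is not a bound site.

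F5, the cofactor with which activated factor X makes thrombin, rose in the 6 comparisons. It ran from 54.7 to 107 TPM (median 75.2) with vehicle to 111 to 147 TPM (median 134) at 10 and 130.1 to 163.3 TPM (median 152) at 30 nmol/kg, and the group at 10 nmol/kg and those above it did not overlap with vehicle. The log2 fold change went from 0.41 ± 0.10 (FDR = 0.0059) at 3 to 0.87 ± 0.10 (FDR = 2.53e-09) at 30 nmol/kg. F7, which starts clotting with tissue factor, was higher from 10 nmol/kg up, by 0.38 ± 0.11 (FDR = 0.00569), 0.48 ± 0.11 (FDR = 0.000401) and 0.46 ± 0.11 (FDR = 0.000395), and by 0.30 and 0.39 with semaglutide. F10, whose gene begins 1.5 kb after F7, did not pass in any of the 6 comparisons (0.02 at 30 nmol/kg). Proz, the next gene, was lower at 30 nmol/kg. Of these 3 neighbours on chromosome 8, F7 thus rose, Proz fell and F10 did not pass. Under other settings F10 passed upward, at 20 and 30 nmol/kg with sample quality weights and at 10 and 20 nmol/kg on log2(TPM + 1). F2, prothrombin, was at 1284 to 1423 TPM (median 1315) with vehicle and 1482 to 1614 TPM (median 1554) at 30 nmol/kg, without overlap in TPM, and a log2 fold change in scaled reads of 0.14 ± 0.05 (FDR = 0.0149) that did not pass with library size alone (0.08, FDR = 0.105).

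The B chain of factor XIII, F13b (chr1:139501702-139523752), was the clotting gene with the largest fall. It ran from 92 to 120.1 TPM (median 103) with vehicle, 79.1 to 93.9 TPM (median 90.8) at 20 and 66.2 to 86 TPM (median 75.5) at 30 nmol/kg, and the last group lay below every vehicle liver. Its log2 fold change was -0.34 ± 0.08 (FDR = 0.000455) at 20 and -0.56 ± 0.08 (FDR = 8.53e-08) at 30 nmol/kg, and -0.14 ± 0.08 (FDR = 0.136) and -0.09 ± 0.08 (FDR = 0.332) with semaglutide, which did not pass. Klkb1, plasma prekallikrein of the contact pathway, was -0.39 ± 0.10 (FDR = 0.000686) at 30 nmol/kg in scaled reads, but its TPM ran from 41.5 to 62.5 with vehicle and from 43.5 to 57.2 at 30 nmol/kg, which overlap, and on log2(TPM + 1) the change was -0.10 (FDR = 0.4). Its neighbour F11, 4.66 kb away and a close relative, was -0.23 ± 0.16 (FDR = 0.198) and did not pass. The other contact factors, F12 and the kininogens Kng1 (-0.15, FDR = 0.078) and Kng2 (0.10, FDR = 0.215), did not pass in any comparison with vehicle, nor did F9. Kng1 and Kng2 are near copies 28.4 kb apart, and reads that match both may have been split between them.

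Of the 6 inhibitors of clotting, Proz and Proc were lower at 30 nmol/kg and none was higher. Of all genes tested, 29.9% were lower and 28.9% higher, and the median log2 fold change of the 6 was 0.05. Proz, protein Z, a cofactor for the inhibition of factor Xa, ran from 140.5 to 179 TPM (median 161) with vehicle and 126 to 156 TPM (median 138) at 30 nmol/kg, ranges that overlap, with a log2 fold change of -0.29 ± 0.07 (FDR = 0.000635). Proc, protein C, which as an activated protease cuts factors Va and VIIIa, was -0.14 ± 0.06 (FDR = 0.0339), a call that was lost without library 70 (-0.13, FDR = 0.0594). Serpina10, which inhibits factor Xa with protein Z, passed at 20 nmol/kg alone (0.40 ± 0.13, FDR = 0.0149). Serpinc1 stood at 3099 ± 193 TPM with vehicle and 3402 ± 131 at 30 nmol/kg (SD, n = 6), and its log2 fold change was 0.08 (95% interval -0.04 to 0.19) in scaled reads, while it passed on log2(TPM + 1) at 0.14 (FDR = 0.0169). Serpind1, heparin cofactor II, was 0.06 (95% interval -0.09 to 0.21) and Pros1, protein S, was 0.17 (95% interval 0.01 to 0.33) at the same dose, with an FDR of 0.0587 for the latter. Neither passed against vehicle in the fit described above. Serpind1 did pass upward at 10 and 20 nmol/kg with sample quality weights and on log2(TPM + 1). Pros1 passed at 30 nmol/kg in DESeq2, in limma without library 70, and on log2(TPM + 1) (0.21, FDR = 0.0218). Proc did not pass on log2(TPM + 1) (-0.07, FDR = 0.19). As a sum, the 6 inhibitors held 0.387 to 0.444% (median 0.4%) of TPM with vehicle and 0.413 to 0.461% (median 0.441%) at 30 nmol/kg, ranges that overlap. The 14 clotting factors held 0.862 to 1.05% (median 0.894%) and 1.33 to 1.86% (median 1.48%), and the 11 of them other than fibrinogen held 0.378 to 0.431% (median 0.39%) and 0.409 to 0.457% (median 0.424%). The 17 complement components held 0.49 to 0.602% (median 0.552%) and 0.679 to 0.815% (median 0.716%), and the 16 other than C3 held 0.355 to 0.421% (median 0.4%) and 0.393 to 0.456% (median 0.409%). The rises of these sums thus lay mostly in the fibrinogen genes and in C3.

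**Figure D5:**
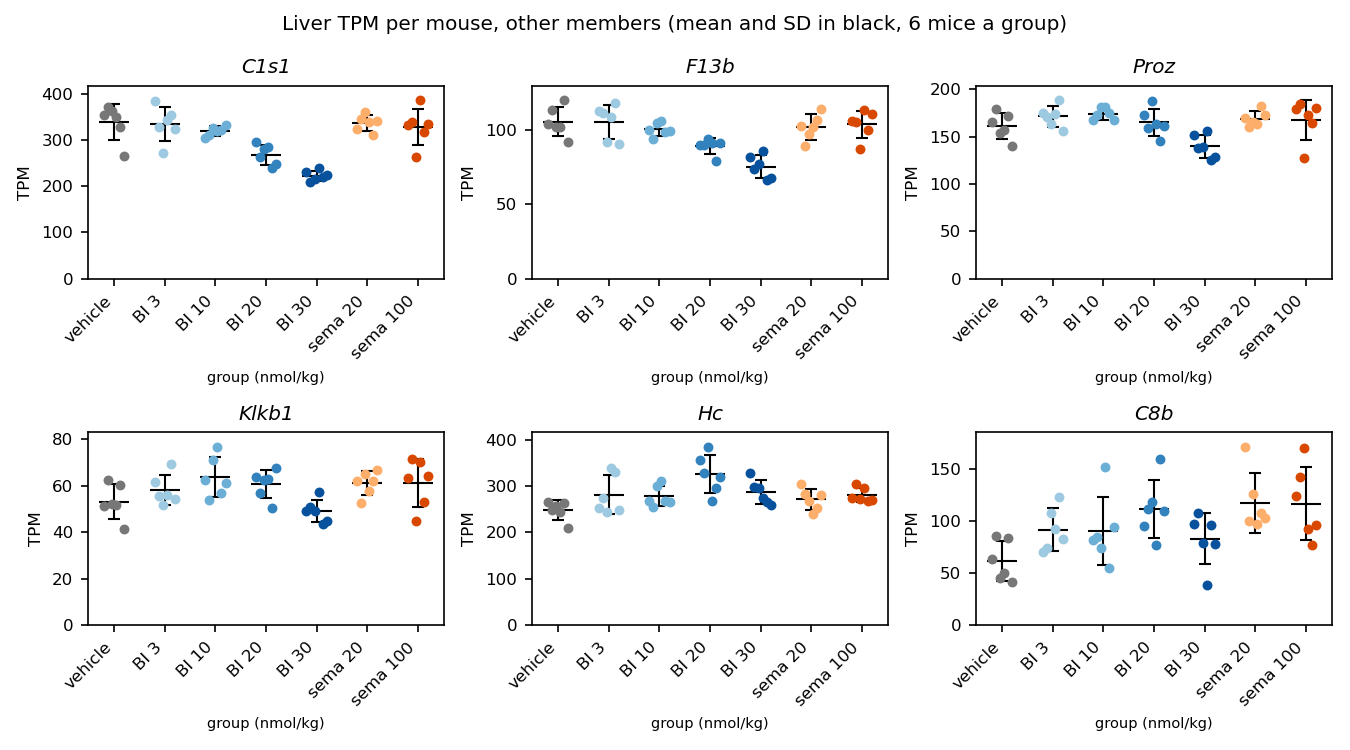
TPM in each of 42 livers for C1s1, F13b, Proz, Klkb1, Hc and C8b (vertical axes from 0), by group on the horizontal axis with the dose in nmol/kg, 6 mice a group, with the mean and SD in black. C1s1 and F13b at 30 nmol/kg lie below all vehicle livers, and the other 4 panels overlap with vehicle.

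In fibrinolysis, Plg, plasminogen, rose at 20 (0.30 ± 0.07, FDR = 0.00104) and 30 nmol/kg (0.27 ± 0.07, FDR = 0.00203) and with semaglutide (0.23 ± 0.07, FDR = 0.0105, and 0.29 ± 0.07, FDR = 0.00134), from 936 to 1188 TPM (median 1002) with vehicle to 1209 to 1475 TPM (median 1283) at 30 nmol/kg. Serpinf2, antiplasmin, which inhibits plasmin, rose with semaglutide 20 nmol/kg (0.29 ± 0.11, FDR = 0.0325) and at 20 (0.47 ± 0.11, FDR = 0.000648) and 30 nmol/kg BI 456906 (0.27 ± 0.11, FDR = 0.0389), the latter a call lost without library 70 (0.25, FDR = 0.07). Cpb2, a carboxypeptidase that slows fibrinolysis, was -0.19 ± 0.08 (FDR = 0.0456) at 30 nmol/kg, a call that did not hold in edgeR (-0.18, FDR = 0.0608), in DESeq2 or without library 70 (-0.17, FDR = 0.0854).

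Of all genes tested, 29.4% passed in no comparison with vehicle, and of the 44 these were 16, namely C2, C6, C9, Cfp, Mbl1, Mbl2, C4bp, F9, F10, F11, F12, Kng1, Kng2, Serpinc1, Serpind1 and Pros1. Apart from C6, their fitted log2 fold changes in the 6 comparisons lay between -0.27 and 0.38. The linear slope on dose over vehicle and the 4 BI 456906 doses passed upward for 15 genes and downward for 9 (29.3% and 29.6% of all genes), and on log2(TPM + 1) for 20 and 5. Per 10 nmol/kg the slope was 0.33 ± 0.03 (FDR = 3.06e-12) for C3, 0.32 ± 0.04 (FDR = 3.21e-08) for Fga, 0.17 ± 0.02 (FDR = 1.28e-09) for Vtn, -0.22 ± 0.02 (FDR = 8.29e-14) for C1s1 and -0.18 ± 0.02 (FDR = 4.81e-09) for F13b on the log2 scale.

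The direct comparisons between the drugs address where the dual agonist differed from the GLP-1 receptor agonist. At 20 nmol/kg of each drug, C3 (0.50 ± 0.10, FDR = 0.00164) and Vtn (0.25 ± 0.07, FDR = 0.0396) were higher with BI 456906, and C1s1 (-0.32 ± 0.06, FDR = 0.000532) and C1ra (-0.24 ± 0.06, FDR = 0.0373) were lower. These were 2 genes each way where 0.908% and 1.51% of all genes passed, and the split was 3 higher and 1 lower on log2(TPM + 1). The calls of C1ra and Vtn were lost under 5 and 2 of 13 alternative settings, and those of C3 and C1s1 under none. C3 alone was higher at 30 nmol/kg BI 456906 than with semaglutide 100 nmol/kg (0.35 ± 0.10, FDR = 0.0154), and 6 genes were lower (4.15% and 5.59% of all genes), a split of 1 and 6 that was 4 and 6 on log2(TPM + 1). The 6 were C1s1 (-0.54 ± 0.06, FDR = 1.53e-08), F13b (-0.47 ± 0.08, FDR = 7.21e-05), C1ra (-0.33 ± 0.06, FDR = 0.000646), Mbl1 (-0.32 ± 0.09, FDR = 0.0194), Klkb1 (-0.30 ± 0.10, FDR = 0.0423) and Proz (-0.27 ± 0.07, FDR = 0.0151). The call of Klkb1 was lost under 4 of 13 alternative settings, log2(TPM + 1) among them, and under 2 against semaglutide 20 nmol/kg. Against semaglutide 20 nmol/kg the same 6 genes were lower at 30 nmol/kg, and C3 (0.52 ± 0.10, FDR = 0.000261), Vtn (0.30 ± 0.07, FDR = 0.0026) and F2 (0.18 ± 0.05, FDR = 0.0117) were higher (6.09% and 7.5% of all genes). These 2 comparisons share the 6 livers at 30 nmol/kg. Mbl1, a mannose-binding lectin that did not pass against vehicle, ran from 178 to 211 TPM (median 186) at 30 nmol/kg and from 193 to 274 TPM (median 242) with semaglutide 100 nmol/kg.

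For fibrinogen no difference between the drugs passed in the fit described above. At 30 nmol/kg against semaglutide 100 nmol/kg the difference was 0.27 (95% interval -0.03 to 0.56) for Fga, 0.20 (95% interval -0.07 to 0.48) for Fgb and 0.20 (95% interval -0.07 to 0.47) for Fgg on the log2 scale, and at 20 nmol/kg of each drug it was 0.21 (95% interval -0.08 to 0.51) for Fga. Against semaglutide 20 nmol/kg, 30 nmol/kg BI 456906 differed by 0.29 (95% interval -0.01 to 0.58) for Fga and 0.22 (95% interval 0.02 to 0.43) for F5. With sample quality weights both passed there, Fga at 0.34 (FDR = 0.0442) and F5 at 0.23 (FDR = 0.0322), and F5 also passed in a fit of the compared groups alone (0.21, FDR = 0.0408). F5 differed by 0.17 (95% interval -0.03 to 0.38) and Hc by 0.02 (95% interval -0.21 to 0.24) at 30 against 100 nmol/kg.

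Of 27 other complement genes, 25 passed the filter, and 3 were higher and 8 lower at 30 nmol/kg, beside 28.9% and 29.9% of all genes tested. The largest fall was that of Cfd, factor D (adipsin), the protease that activates factor B and that fat cells make in quantity. Cfd ran from 5.44 to 18.7 TPM (median 11.7) with vehicle, 0.69 to 4.21 TPM (median 2.1) at 3 and 0.17 to 0.52 TPM (median 0.255) at 10 nmol/kg, and from 0 to 1 read a library at 30 nmol/kg against 159 to 566 reads with vehicle. Set against a floor of 3 reads per library, Cfd was at least 113-fold lower at 30 nmol/kg than with vehicle. With semaglutide it ran from 0.13 to 2.72 TPM (median 0.87) at 20 and 0.04 to 5.06 TPM (median 0.365) at 100 nmol/kg. Fat of vehicle mice held 414 to 1763 TPM of Cfd and 1319.9 to 3169 TPM of Adipoq, the fat cell hormone adiponectin, while Adipoq in liver was 0.08 to 0.53 TPM with vehicle and 0 to 0.14 at 30 nmol/kg. The part of fat tissue in the liver samples in the fall of Cfd was not tested. Of 27 other coagulation genes, 26 passed the filter, and 3 were higher and 8 lower at 30 nmol/kg, beside the same shares of all genes. The largest falls there were Plat, tissue plasminogen activator, at -1.44 ± 0.42 (FDR = 0.00319), and F2r, a thrombin receptor, at -1.43 ± 0.13 (FDR = 1.95e-11).

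A list of 15 genes known to act on these genes held receptors, transcription factors and Socs3. Of the 15, 10 were higher and 2 lower at 30 nmol/kg, with a median log2 fold change of 0.65. At 20 nmol/kg 6 were higher and 4 lower, with a median of 0.22. Of all genes tested 28.9% were higher and 29.9% lower at 30, and 23% and 22.9% at 20 nmol/kg. The largest rises were those of Il1r1, the interleukin-1 receptor (2.34 ± 0.31, FDR = 5.7e-08), Onecut1, a hepatocyte transcription factor (1.65 ± 0.57, FDR = 0.013), and Il6ra, the interleukin-6 receptor (1.14 ± 0.16, FDR = 7.99e-08). Il6ra ran from 11.6 to 21.5 TPM (median 18.6) with vehicle and 34.5 to 51.5 TPM (median 43.3) at 30 nmol/kg, without overlap, and Il1r1 from 4.87 to 6.28 TPM (median 5.87) and 20.4 to 39.4 TPM (median 31.9). With semaglutide 20 nmol/kg Il1r1 changed by 2.45 ± 0.32 (FDR = 1.24e-07) and Il6ra by 1.09 ± 0.16 (FDR = 5.72e-07). The part of these genes in the changes of the 44 was not tested.

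Markers of some cells other than hepatocytes were lower at 30 nmol/kg, where 29.9% of all genes tested were lower and 28.9% higher. Of 6 markers of stellate cells 5 were lower, with summed TPM of 170.1 to 337 with vehicle and 147 to 224 at 30 nmol/kg, and of 5 markers of cholangiocytes 3 were lower (37.3 to 168 and 17 to 57.4). Of 8 markers of Kupffer cells and macrophages 1 was lower (134 to 326 and 102 to 266), and of 7 hepatocyte markers 2 were higher and 2 lower (96537 to 111711 and 106890.5 to 118645). Of 6 endothelial markers 1 was higher and 1 lower (138 to 176 and 165 to 179), none of 5 lymphocyte markers passed (1.8 to 7.14 and 2.54 to 4.51), and of 4 neutrophil markers 2 passed the filter and 1 was lower (3.22 to 5.74 and 0.8 to 4.37). With semaglutide 20 and 100 nmol/kg, 4 and 5 of the stellate markers and 2 and 2 of the cholangiocyte markers were lower. Of all genes tested, 23.5% and 24.1% were lower there. The part of cell make-up in the falls of C1s1 and the other genes that fat also expresses was not tested.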

How the data were processed

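RNA was sequenced from the liver and epididymal fat of the same study; here the 42 liver libraries were tested and the 6 vehicle fat libraries gave levels alone. The authors aligned reads to mouse mm10 (GRCm38), and the submitters' notes name STAR 2.5.2b, RSEM 1.3.0, featureCounts 1.5.1 and FastQC 0.11.5. The labels describe SMART-Seq v4 libraries with single reads, while the methods describe poly(A), strand-specific libraries with paired reads, so whether counting used strand is unsettled. The deposited files hold, per the file headers, a read signal for each gene, which the values show to be whole reads divided by 1 factor per library (scaled reads), and TPM, which the authors deposited per gene. Multiplying by that factor gave back whole reads, 21676902 to 53869104 a liver library.

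Scaled reads were tested with limma 3.58.1 (voom, pseudocount 0.5, TMM from edgeR 4.0.16, filterByExpr) in R 4.3.3 over 15964 genes, with Benjamini-Hochberg adjustment and a threshold of 0.05. GEO's labels gave the groups. Dose slopes used a linear contrast, and TPM gave levels and figures (Python 3.11.15). On simulated counts for 30 nmol/kg against vehicle (16012 genes), the test found 98 of 100 genes changed 2-fold and 53 of 100 changed 1.4-fold, with 9 other calls. No other gene was changed there, while 28.9% of genes passed upward and 29.9% downward in the livers. The simulation thus cannot speak to the choice of scaling or to false calls where so many genes move. Of 105 library pairs within groups, none looked deposited more than once, and pairs between groups were not checked. The labels give separate mice, so p-values measure spread between mice. Alternatives were RLE factors, unscaled library sizes, dropping the filter or asking every library for 10 counts, edgeR and DESeq2 1.42.0 on recovered reads, log2(TPM + 1), log2(TPM + 0.1), sample weights, only the groups compared, and 3 libraries left out.

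The 44 genes, the gene lists and the alternatives were chosen with earlier results of these data known. Values were given by rule for the 4 largest rises and falls in each role at 30 nmol/kg among passing genes, for C3, Hc, F2, Fga, Fgb and Fgg, for the largest semaglutide change in each role, for the largest differences between the drugs, for close copies and for the 3 largest rises and falls among other pathway genes. Other genes, such as C4b, F7, C8a, C6, Mbl1, Cfi, Serpina10, Serpinc1 and Saa1, were named after their values were seen.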

Additional observations from a re-analysis of the deposited data

Results flagged for a closer look

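Of 175 sets of 6 livers (25 genes with values given, in 7 groups), 7 held a liver whose gap to the nearest other liver was large for the range of its group by Dixon's criterion, and chance gives such a gap in about 1 of 20 sets. With vehicle, library 47 held 1247 TPM of Fgb against 992 to 1087 in the other 5 livers. At 20 nmol/kg BI 456906, library 64 held 2076 TPM of Vtn against 2278 to 2386, and library 65 held 79.1 TPM of F13b against 89.8 to 93.9. At 30 nmol/kg, library 67 held 657 TPM of Serping1 against 588 to 613. With semaglutide 20 nmol/kg, library 74 held 199.5 TPM of Masp2 against 229.9 to 244. With semaglutide 100 nmol/kg, library 80 held 4594 TPM of Fga against 4011 to 4228, and library 81 held 127.5 TPM of Proz against 164 to 184.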

How the results depend on the processing

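No paired analysis was possible because the groups share no replicate numbers. Of 130 counts of passing genes under another setting, 123 were within 1.5 times the value reported, and the cause of the other 7 was not tested. At 10 nmol/kg the count of 11 became 19 on log2(TPM + 1) and 19 on log2(TPM + 0.1). At 3 nmol/kg the count of 8 became 14 with sample quality weights and 0 when limma was fitted on the groups of the comparison alone, where 12 genes had an unadjusted p under 0.05, while edgeR and DESeq2 over all groups each gave 8. For 30 nmol/kg against semaglutide 20 nmol/kg the count of 9 became 14 with sample quality weights. For 20 nmol/kg of each drug the count of 4 became 2 on the groups of the comparison alone and was 2 to 4 with 1 library left out (2 without library 77, the shallowest, an alternative chosen after seeing the data). Of 325 fold changes at 30 nmol/kg of the genes with values given, 287 kept direction and call, 32 lost the call, 6 gained it and none changed direction. Calls of Cpb2, Proc and C1ra were lost most often, under 10, 7 and 6 of 13 settings, and depth did not limit any of the 44 genes to few reads.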
